A study of Homo sapiens with 6 samples.

Results

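The mRNAs that encode the basal transcription machinery were examined in RNA immunoprecipitation sequencing (RIP-seq) libraries of 786-O cells. 786-O is a human tumour cell line established from a clear cell carcinoma of the kidney. Members were the genes whose symbols name a TBP-associated factor (TAF), TBP itself, a Mediator subunit (MED), a subunit of RNA polymerase I, II or III (POLR) or a general transcription factor of the GTF2 or GTF3 families, provided that they had at least 20 reads summed over the 6 libraries. Of 20020 genes in the deposited table, 113 matched by symbol and 110 were kept. The 3 left out were *GTF2A1L* with 0 reads, *TAF1L* with 1 and *TAF7L* with 11, and the member nearest above the limit was *MED12L* with 62. One group, called RIP here, held 3 libraries of RNA recovered with an antibody to IGF2BP2, and the other, called input, held 3 libraries of input RNA. The labels describe both groups as the same cell line in its usual medium, and name no treatment, no altered allele and no separate cultures. The p-values therefore reflect only how far these particular libraries differ, and that difference may be technical. Libraries made with a nonspecific antibody were not analysed here, so an enrichment is relative to input and includes whatever any antibody or bead would recover.

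RNA polymerase II makes the mRNAs of the cell, polymerase I the large ribosomal RNAs, and polymerase III transfer RNAs and other small RNAs. Polymerase II is brought to promoters by the general factors, of which TFIID, built from TBP and the TAFs, is the one that recognises the core promoter, while Mediator connects gene-specific activators to the polymerase. IGF2BP2 binds mRNAs, mainly in the cytoplasm, and is known for prolonging their life and tuning their translation. The values below therefore describe transcripts that encode the machinery, not the protein complexes.

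The libraries held 25773819 to 44045835 reads in genes. Levels are given as CPM, read counts scaled to library size with the trimmed mean of M values (TMM), with the SD over 3 libraries, and fold changes are RIP over input. Of 10 markers listed for a renal carcinoma line all passed the filter on low counts. Their summed level was 7219 to 7542 CPM in RIP and 6525 to 6846 CPM in input. *VIM*, which is not particular to the kidney, alone made up 3385 ± 156 CPM in RIP and 4077 ± 135 CPM in input. The 5 immune and blood markers stayed below 1 CPM in every library. Summed endothelial markers reached 2.31 to 2.95 CPM in RIP and 2.57 to 4.26 CPM in input, and summed fibroblast markers 8.17 to 10.7 CPM in RIP and 7.95 to 12 CPM in input. As these are bulk libraries, more cells holding a transcript and more transcript per cell cannot be told apart.

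Most transcripts of the transcription machinery were under-represented with IGF2BP2, but each complex held members at both ends. Of the 109 members that passed the filter on low counts, 33 were enriched in RIP and 63 were depleted at an adjusted p under 0.05 (edgeR's quasi-likelihood test, Benjamini-Hochberg adjustment over all 12856 genes tested), and 13 did not pass. Among all genes tested 40.7% were enriched and 42.0% depleted, against 30.3% and 57.8% of the members. The members' median log2 fold change was -0.41, and that of all tested genes was -0.02. Changes of 2-fold or more were called for 8 enriched and 31 depleted members, against a background of 15.1% and 19.7% of all tested genes. In 35 members all RIP libraries lay above all inputs and in 65 they lay below, against a background of 40.9% and 42.2%. Only *MED12L* did not pass the filter, at 0.336 ± 0.0318 CPM in RIP and 0.303 ± 0.0807 CPM in input. When counts were scaled by read totals only, without TMM, 26 members were enriched and 69 depleted, against 32.0% and 50.4% of all tested genes. In that setting the median of all genes shifted to -0.26 and that of the members to -0.65.

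**Figure D1:**
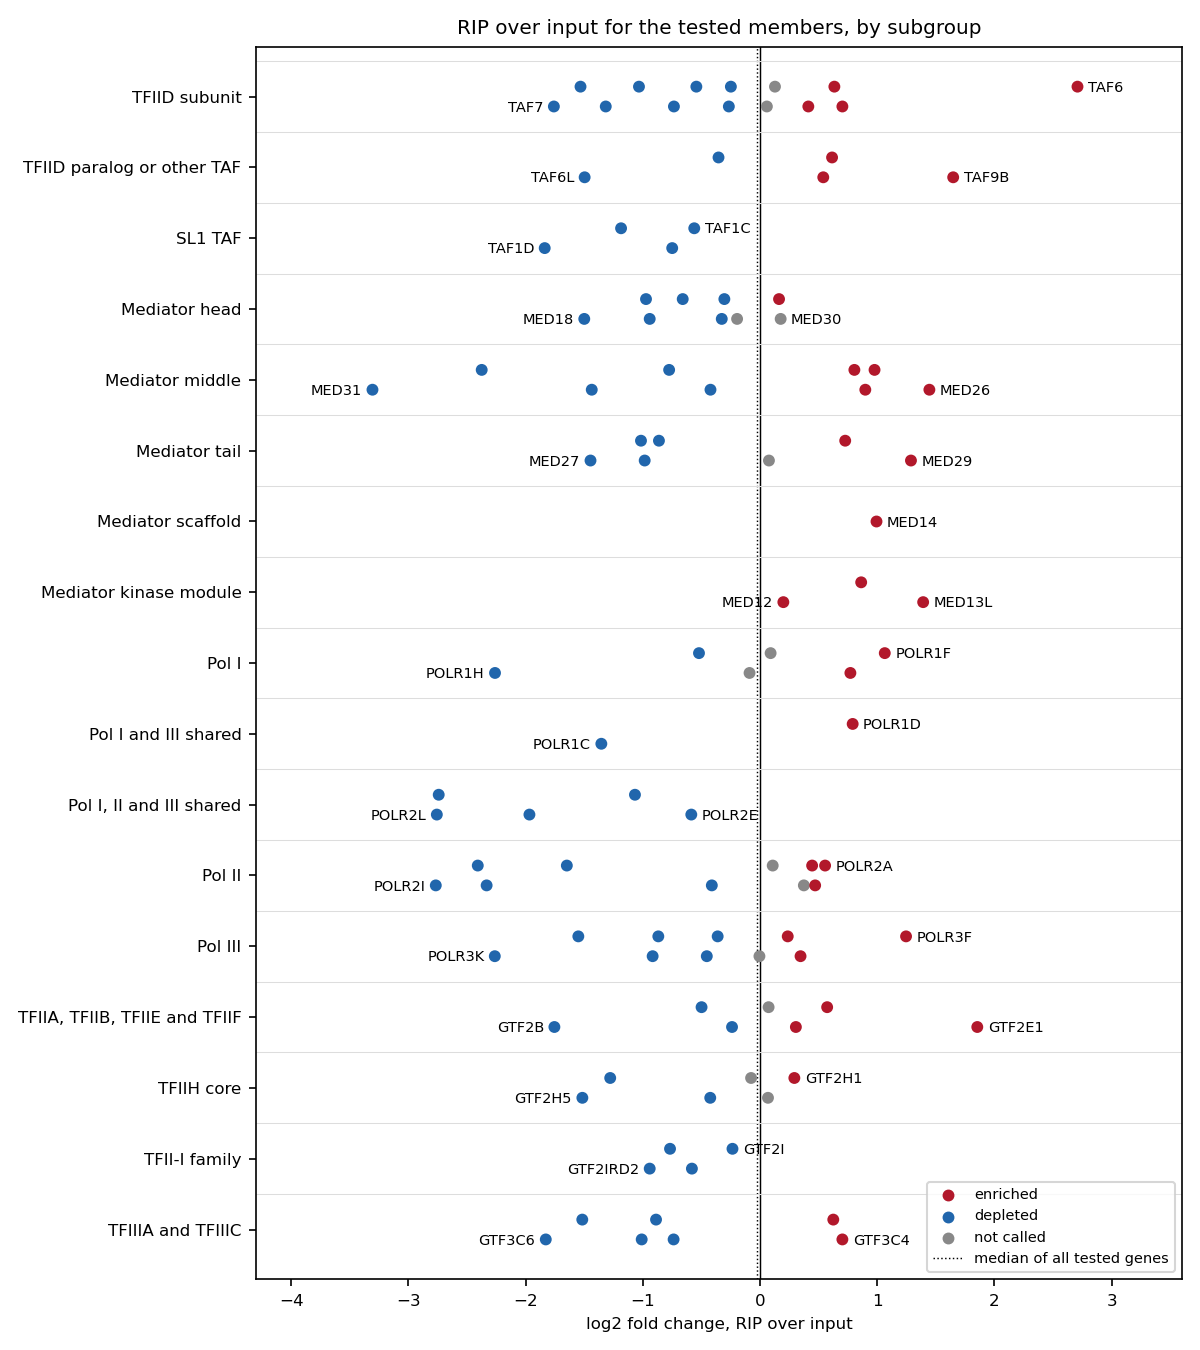
Log2 fold change of RIP over input for the 109 tested members (x axis), 1 point per gene, in rows by subgroup, coloured by the call at an adjusted p under 0.05; the dotted line is the median of all tested genes at -0.02. The lowest and highest gene of each row are named; all points of the SL1 TAFs, of the subunits shared by the 3 polymerases and of the TFII-I family lie below 0, and *TAF6* stands farthest to the right at 2.71.

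Gene length moved with these values. Lengths are the exonic gene lengths implied by the deposited counts and FPKM, and need not be those of the transcripts present. *TAF10*, for example, has 5312 nt in a span from 6606294 to 6612216 on chromosome 11. Across the 109 tested members the log2 fold change had a Spearman correlation of 0.46 with length, and across all 12856 tested genes one of 0.44; both are descriptions across genes of the same libraries, and genes are not independent replicates. All tested genes were cut by length into 3 classes of equal size. In the shortest class, up to 2950 nt, 36 of 49 members were depleted and 7 enriched, beside 63.9% and 19.5% of all genes of that class. The middle class, up to 5238 nt, held 32 members, of which 16 were depleted and 11 enriched, beside 39.1% and 42.0%. In the longest class 11 of 28 members were depleted and 15 enriched, beside 23.0% and 60.6%. The members' medians in these classes were -0.78, -0.13 and 0.22 on the log2 scale, and those of all genes -0.74, 0.02 and 0.42.

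When the trend with length was removed by a curve fitted in each library, 41 members were enriched and 57 depleted, or 37.6% and 52.3%, against a background of 40.2% and 40.0%. The members' median was then -0.24 and that of all genes 0.00. Of the 33 enriched members 28 kept their call and 1 turned to depleted, and of the 63 depleted members 54 kept their call and 6 turned to enriched.

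**Figure D2:**
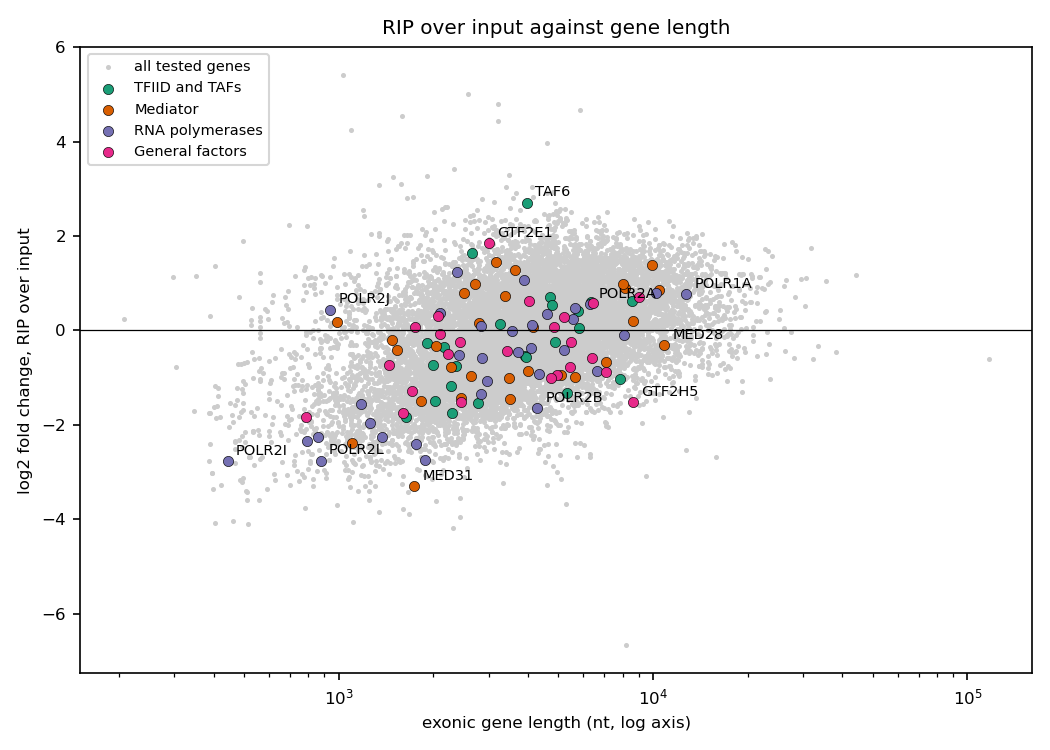
Log2 fold change of RIP over input (y axis) against exonic gene length in nt (x axis, log scale) for all 12856 tested genes in grey and the 109 tested members in colour by complex. Polymerase genes of short exonic length such as *POLR2I* (443 nt) and *POLR2L* (876 nt) lie at the lower left. *POLR2J* (937 nt) lies above 0 among them, and *GTF2H5* (8628 nt) lies below 0 among the long genes.

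TFIID and the TAFs numbered 23 tested genes, of which 7 were enriched and 14 depleted, beside the background of 40.7% and 42.0%. The TFIID subunits proper split into 4 enriched, 8 depleted and 2 that did not pass. *TAF6*, a histone-fold subunit of the TFIID core (chromosome 7, 100107070 to 100127171 on GRCh38), had the highest fold change of all members. It stood at 327, 319 and 332 CPM in RIP libraries 1, 2 and 3 and at 47.1, 50.7 and 51.8 CPM in inputs 1, 2 and 3. The RIP libraries thus lay far above the inputs and close to one another, a 6.54-fold enrichment (log2 fold change 2.71, SE 0.045, edgeR adjusted p = 7.91e-25). That is higher than 99.8% of all tested genes, and it was 2.67 on the log2 scale after the length correction. The span of *TAF6* overlaps those of *AP4M1*, *CNPY4* and *MBLAC1*, which were themselves lower in RIP, at log2 fold changes of -0.51, -2.32 and -1.01.

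The other enriched TFIID subunits rose less. *TAF4*, a scaffold of the complex that many activators contact, had 32.7, 32.6 and 37.4 CPM in RIP and 21.1, 20.7 and 21.2 CPM in input, 1.63-fold higher. *TAF8*, which joins the lobes of TFIID, rose 1.55-fold and *TAF12*, the histone-fold partner of *TAF4*, 1.33-fold; after the length correction *TAF12* no longer passed.

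*TAF7*, which binds *TAF1* and restrains its enzymatic activity (chromosome 5, 141318490 to 141320784), was the lowest TFIID subunit. Its level was 10.4, 9.36 and 9.19 CPM in the RIP libraries and 33.6, 30.9 and 33.7 CPM in the inputs. No RIP library came near an input, and the transcript fell 3.39-fold (log2 fold change -1.76, SE 0.069, edgeR adjusted p = 4.73e-17). *TAF1*, the largest subunit and the one that reads acetylated histones (chromosome X, 71366357 to 71530525), had 27.1, 24.2 and 24.9 CPM in RIP and 50.2, 52.9 and 52.8 CPM in input, 2.05-fold lower. At 7836 nt it is long, and after the length correction its log2 fold change was -1.45 in place of -1.03. *TAF13* fell 2.89-fold and *TAF10*, a subunit shared with the coactivator SAGA, 2.49-fold.

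*TBP*, the TATA-binding protein that all 3 polymerases use, was close to its input level. It stood at 12, 13.8 and 12.2 CPM in RIP and at 15.4, 16 and 14.5 CPM in input, 1.20-fold lower (edgeR adjusted p = 0.00547), and the length correction turned its log2 fold change of -0.27 to 0.44. *TAF2*, which contacts the initiator element, and *TAF5*, the WD40-repeat scaffold, did not pass, at log2 fold changes of 0.06 and 0.13.

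Outside TFIID proper, *TAF9B*, a paralog of *TAF9* encoded on the X chromosome (78129748 to 78139650), rose 3.13-fold. It had 107, 114 and 106 CPM in RIP and 34.1, 34.8 and 35.6 CPM in input, with no overlap (log2 fold change 1.65, SE 0.036, edgeR adjusted p = 3.43e-20). *TAF5L* and *TAF6L* serve SAGA in place of *TAF5* and *TAF6*, and they went opposite ways. *TAF5L* was 1.53-fold higher and *TAF6L* 2.82-fold lower in RIP, *TAF6L* at only 2.38 ± 0.367 CPM in RIP and 6.76 ± 0.448 CPM in input. The span of *TAF6L* overlaps that of *TMEM223*, which had 66.7 CPM in RIP and 16.4 CPM in input (log2 fold change 2.02). Their reads may not be fully separable. *TAF15*, an RNA-binding protein, had 43.4, 45.4 and 48.3 CPM in RIP and 62.1, 56.7 and 56.4 CPM in input, 1.28-fold lower, a direction that the length correction turned to 0.23 on the log2 scale.

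All 4 TAFs of SL1, the factor that carries TBP to ribosomal DNA promoters for polymerase I, were depleted, beside 42.0% of all tested genes. *TAF1D* had the lowest fold change of them. It stood at 4.23, 4.67 and 4.61 CPM in RIP and 16.8, 16.6 and 15 CPM in input, 3.57-fold lower. Its span overlaps that of *CEP295*, which had a log2 fold change of 0.66. *TAF1C* changed least, at 1.48-fold lower. The 4 were also called depleted under read-total scaling and after the length correction. *TAF1A*, *TAF1B* and *TAF1D* are short, at 2277, 2355 and 1632 nt, and 63.9% of all genes of the shortest class were depleted. *TAF1A* was scarce and uneven, at 1.29, 2.68 and 1.60 CPM in RIP and 3.91, 4.77 and 4.21 CPM in input.

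Mediator contributed 29 tested genes, 11 enriched and 15 depleted, beside the background of 40.7% and 42.0%. The scaffold, which is *MED14* alone, and the 3 tested MED genes of the kinase module were higher in RIP. Most head and tail subunits were lower. *MED14* is 7996 nt long and the kinase module genes are 8640 to 10461 nt long. In the longest class 60.6% of all tested genes were enriched. The central scaffold *MED14* (chromosome X, 40648305 to 40736159) stood at 217, 218 and 222 CPM in RIP and 110, 109 and 112 CPM in input. The libraries of a group differed by little, and the rise was 1.99-fold (log2 fold change 0.99, SE 0.017, edgeR adjusted p = 1.31e-17).

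In the kinase module, a detachable part that represses or tunes Mediator, the 3 tested members of the list were enriched. Among all tested genes 40.7% were enriched. *MED13L* (chromosome 12, 115958576 to 116277693) had 214, 224 and 235 CPM in RIP and 79.4, 85.6 and 91.2 CPM in input, a 2.62-fold rise (edgeR adjusted p = 1.02e-18). Its paralog *MED13* had 259, 276 and 270.1 CPM in RIP and 146, 145 and 152 CPM in input, 1.82-fold higher. *MED12*, which activates the module's kinase, differed least, at 49.8, 50.5 and 54.6 CPM in RIP and 41.9, 46.2 and 46.8 CPM in input. The groups did not overlap, but its log2 fold change of 0.20 was -0.042 under read-total scaling and -0.25 after the length correction. The kinases *CDK8* and *CDK19*, named outside the MED series, rose 1.42-fold and 2.18-fold, while their cyclin *CCNC* was 1.89-fold lower.

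The middle module, which transmits signals between tail and head, spanned the widest range of any subgroup, from -3.31 to 1.44 on the log2 scale. That width rests on the scarce *MED31* alone. The next lowest gene, *MED10*, stood at -2.375, and the TFIID subunits ranged from -1.76 to 2.71. *MED1*, the docking site of nuclear receptors (chromosome 17, 39404285 to 39451263), stood at 264, 266 and 262 CPM in RIP and 146, 140 and 140 CPM in input, 1.86-fold higher. *MED26*, which recruits elongation factors, had 12.5, 12.1 and 13.2 CPM in RIP and 3.73, 4.84 and 5.28 CPM in input, 2.72-fold higher (edgeR adjusted p = 1.17e-11). *MED10* went the other way, with 4.83, 5.24 and 5.19 CPM in RIP and 23.7, 27.4 and 28.1 CPM in input, a 5.19-fold depletion (edgeR adjusted p = 4.87e-18). *MED31*, a small conserved subunit, had the lowest fold change of all members but also a low level. Its RIP libraries held 0.687, 0.720 and 0.384 CPM and its inputs 4.93, 6.11 and 7.13 CPM, 9.9-fold lower with an SE of 0.30 on the log2 scale. Its span overlaps that of *TXNDC17*, which had a log2 fold change of -1.25.

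The head module, which contacts the polymerase, held 1 enriched and 6 depleted members of 9, beside the background of 40.7% and 42.0%. The enriched one was *MED20*, with 21.5, 20.5 and 20.8 CPM in RIP and 18.5, 19.3 and 18.3 CPM in input, at a log2 fold change of only 0.16 (edgeR adjusted p = 0.0349), which was -0.079 under read-total scaling and did not pass without RIP replicate 1, input replicate 1 or input replicate 3 (log2 fold change 0.14 to 0.15). *MED18*, its partner in the movable jaw of the head, had 5.18, 5.21 and 4.65 CPM in RIP and 14.3, 14.3 and 14.0 CPM in input, 2.83-fold lower. *MED17*, the organising subunit of the head, was scarce at 1.33 ± 0.0436 CPM in RIP and 2.56 ± 0.357 CPM in input. After the length correction 4 head members were enriched and 5 depleted.

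In the tail, where most activators bind, 2 members were enriched and 4 depleted of 7, beside the background of 40.7% and 42.0%. *MED29* had 92.1, 91.6 and 93.3 CPM in RIP and 37.1, 39.3 and 37.0 CPM in input, 2.44-fold higher. *MED15*, a target of several activators, was 1.65-fold higher. *MED27* was 2.73-fold lower, at 11, 9.28 and 10.3 CPM in RIP and 27.2, 27.6 and 28.7 CPM in input. *MED16* (2.02-fold), *MED23* (1.98-fold) and *MED24* (1.82-fold), which lie together in the tail, were all lower as well, and their log2 fold changes stayed between -1.26 and -0.90 after the length correction.

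**Figure D3:**
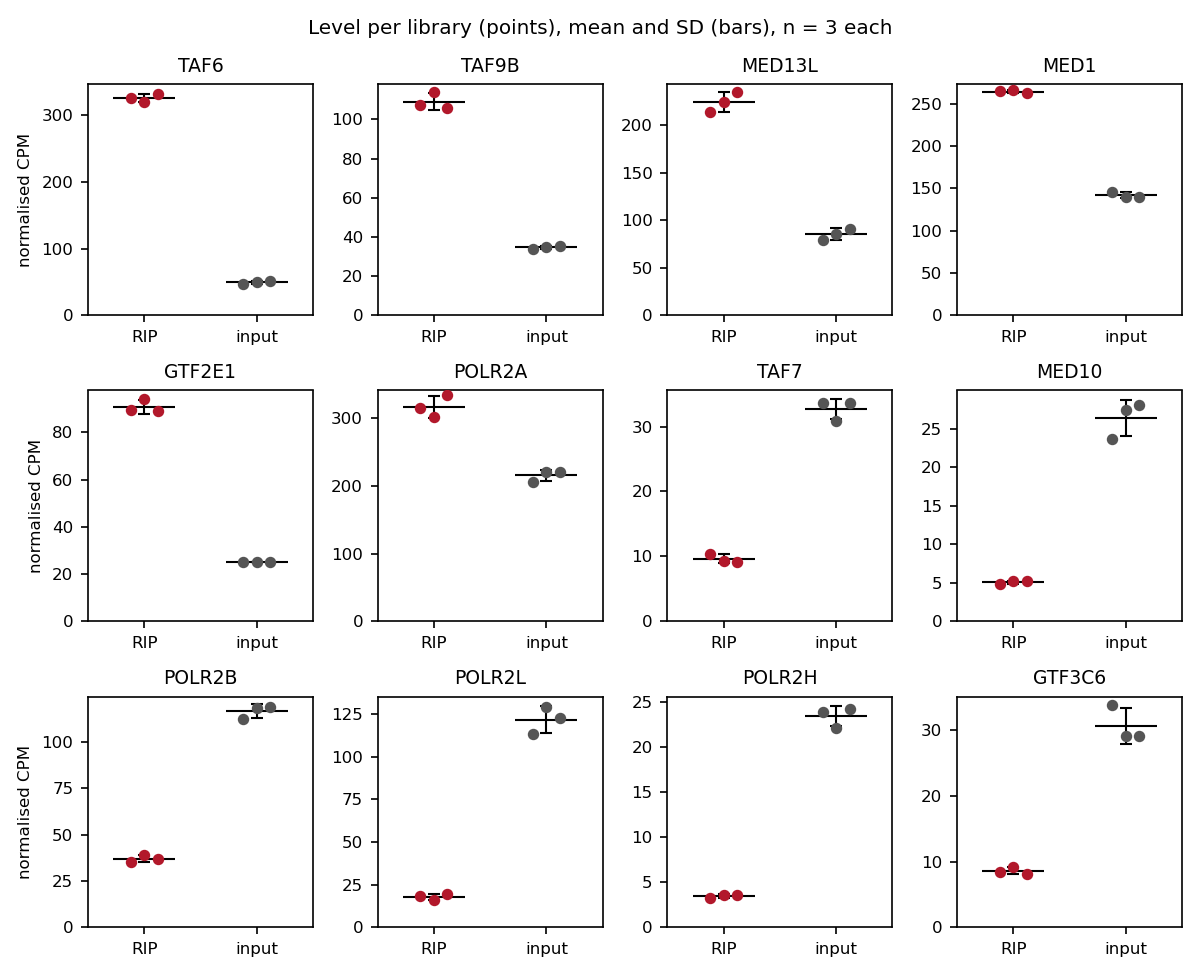
Normalised CPM (y axis, from 0) of 12 members in each of the 3 RIP and 3 input libraries (points), with the mean and SD as bars. In the first 6 panels, *TAF6* to *POLR2A*, every RIP library lies above every input, and in the last 6, *TAF7* to *GTF3C6*, every RIP library lies below.

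The RNA polymerase subunits numbered 33 tested genes, of which 9 were enriched, 19 depleted and 5 did not pass, beside the background of 40.7% and 42.0%. The Spearman correlation of the log2 fold change with length was 0.61 among them. All 5 subunits that the 3 polymerases share were depleted, also under read-total scaling and after the length correction. *POLR2L*, a zinc-binding subunit with the shortest exonic length of these (876 nt, chromosome 11, 839721 to 842529), had 18.5, 16.1 and 19.5 CPM in RIP and 113, 129 and 123 CPM in input. It fell 6.76-fold (log2 fold change -2.76, SE 0.099, edgeR adjusted p = 8.32e-22). *POLR2H* fell 6.69-fold, with 3.26, 3.65 and 3.59 CPM in RIP and 23.9, 22.2 and 24.3 CPM in input, and kept a log2 fold change of -2.03 after the length correction. *POLR2K*, which binds zinc, fell 3.91-fold, *POLR2F* 2.10-fold and *POLR2E* 1.5-fold.

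The largest subunits of polymerase II, which together form its catalytic cleft, went opposite ways. *POLR2A*, which carries the catalytic site and the heptad-repeat tail (chromosome 17, 7484366 to 7514616), had 315, 302 and 335 CPM in RIP and 206, 221 and 221 CPM in input, 1.47-fold higher (edgeR adjusted p = 1.23e-11). *POLR2B* (chromosome 4, 56978896 to 57031158) had 35.4, 38.8 and 36.9 CPM in RIP and 112, 118 and 119 CPM in input, 3.14-fold lower (edgeR adjusted p = 3.71e-20). Their lengths are 6312 nt for *POLR2A* and 4286 nt for *POLR2B*. After the length correction their log2 fold changes were 0.22 and -1.74. The span of *POLR2B* overlaps that of *IGFBP7*, which had a log2 fold change of -0.40.

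Of the other 8 polymerase II genes 4 were depleted, 2 enriched and 2 did not pass. Among all tested genes 42.0% were depleted and 40.7% enriched. *POLR2I*, which acts in start site choice and proofreading, has the shortest exonic length of the members (443 nt). It had 3.49, 3.03 and 3.91 CPM in RIP and 23, 25.5 and 21.9 CPM in input, 6.81-fold lower. *POLR2C* fell 5.31-fold and *POLR2G*, which forms the stalk with *POLR2D*, 5.04-fold, while *POLR2D* itself fell 1.33-fold. *POLR2J* stood apart among the short genes, 1.36-fold higher at 54.0 ± 2.88 CPM in RIP and 39.6 ± 1.84 CPM in input, and its log2 fold change was 1.77 after the length correction. It has near-identical copies, *POLR2J2*, which did not pass, and *POLR2J3*, which was enriched at a log2 fold change of 0.47. Since the counting may split reads among the copies, these values are uncertain. *POLR2M*, which blocks the binding of TFIIF to the polymerase, did not pass (edgeR adjusted p = 0.178).

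Polymerase I had 2 enriched and 2 depleted subunits of 6, beside the background of 40.7% and 42.0%. *POLR1F*, a stalk subunit, had 102, 108 and 98.7 CPM in RIP and 50.4, 48.1 and 49.2 CPM in input, 2.09-fold higher. The catalytic subunit *POLR1A* was 1.71-fold higher and its partner *POLR1B* did not pass (log2 fold change -0.090), although it was called depleted under read-total scaling (-0.33) and after the length correction (-0.52). *POLR1E* had 20.3, 20.4 and 21.4 CPM in RIP and 28.5, 28.4 and 32.2 CPM in input, 1.44-fold lower, but did not pass after the length correction (-0.035). *POLR1H* was 4.79-fold lower at 1.20 ± 0.103 CPM in RIP and 5.81 ± 0.768 CPM in input. Its span overlaps that of *PPP1R11*, which had a log2 fold change of 1.02. *POLR1D* and *POLR1C* form a heterodimer that starts the assembly of polymerases I and III. *POLR1D* had 65.2, 68.2 and 68.3 CPM in RIP and 38.5, 38.6 and 39.6 CPM in input, 1.73-fold higher. *POLR1C* had 5.58, 4.84 and 5.54 CPM in RIP and 12.9, 14.4 and 13.4 CPM in input, 2.56-fold lower. The span of *POLR1D* overlaps that of *LNX2* (log2 fold change 1.20) and that of *POLR1C* overlaps *XPO5* (0.027).

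In polymerase III 3 subunits were enriched and 6 depleted of 10, beside the background of 40.7% and 42.0%. *POLR3F*, part of the trimer that opens the promoter, had 26, 26.8 and 24.7 CPM in RIP and 11.7, 11.4 and 9.56 CPM in input, 2.37-fold higher. *POLR3K*, which acts in termination, had 1.80, 1.89 and 1.57 CPM in RIP and 8.42, 8.76 and 8.24 CPM in input, 4.80-fold lower. Both large subunits were lower, *POLR3A* 1.83-fold and *POLR3B* 1.89-fold. *POLR3D* rose by only 0.24 on the log2 scale, and it did not pass under read-total scaling (-0.0045) or after the length correction (-0.025).

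The general factors numbered 24 tested genes, 6 enriched and 15 depleted, beside the background of 40.7% and 42.0%. *GTF2E1*, the large subunit of TFIIE, which recruits TFIIH (chromosome 3, 120742744 to 120783069), had 89.4, 94.2 and 89.0 CPM in RIP and 25, 25.2 and 25.3 CPM in input. It rose 3.61-fold (log2 fold change 1.85, SE 0.027, edgeR adjusted p = 7.84e-21), and its partner *GTF2E2* did not pass, at 13.2 ± 0.394 CPM in RIP and 12.6 ± 0.620 CPM in input. After the length correction *GTF2E2* was called enriched at 0.86 on the log2 scale. Both subunits of TFIIA, which stabilises TBP on DNA, were higher, *GTF2A1* 1.49-fold and *GTF2A2* 1.24-fold, although *GTF2A2* did not pass under read-total scaling. *GTF2B*, the single polypeptide of TFIIB, which bridges TBP and the polymerase, had 4.06, 5.49 and 4.52 CPM in RIP and 15.3, 15.5 and 17.0 CPM in input, 3.37-fold lower. The TFIIF subunits *GTF2F1* and *GTF2F2* were lower by 1.18-fold and 1.41-fold, and the length correction turned both, to 0.24 and 0.062 on the log2 scale.

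TFIIH opens the promoter and repairs DNA. Of its 6 tested GTF2H genes 1 was enriched, *GTF2H1* at a log2 fold change of 0.29, and 3 were depleted. The background was 40.7% enriched and 42.0% depleted. *GTF2H1* had 52.1, 54.4 and 48.5 CPM in RIP and 43.6, 40.8 and 42.4 CPM in input, and it no longer passed under read-total scaling or after the length correction. *GTF2H5*, a small stabilising subunit, had 5.06, 6.21 and 4.58 CPM in RIP and 15.5, 14.8 and 15.4 CPM in input, 2.86-fold lower although its gene model is 8628 nt long. *GTF2H2* and *GTF2H2C* are near-identical copies, did not pass and are uncertain. The 5 TFIIH subunits with other names were all depleted, led by the kinase *CDK7* at 2.30 ± 0.0762 CPM in RIP and 11.1 ± 0.218 CPM in input, 4.81-fold lower.

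The 4 genes of the TFII-I family, which bind initiator-like and upstream elements, were depleted, beside 42.0% of all tested genes. *GTF2I*, TFII-I itself, fell little, to 301 ± 4.18 CPM in RIP, against 354 ± 7.04 CPM in input (1.18-fold). *GTF2IRD1* was 1.5-fold lower, at 34.3, 34.3 and 34.1 CPM in RIP and 51.0, 50.0 and 52.7 CPM in input. *GTF2I*, *GTF2IRD2* and *GTF2IRD2B* lie in segmental duplications and are uncertain for that reason.

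TFIIIA and TFIIIC, which recognise the internal promoters of polymerase III genes, had 2 enriched and 5 depleted members of 7. The background was 40.7% enriched and 42.0% depleted. *GTF3C4* had 109, 111 and 114 CPM in RIP and 67.1, 67.9 and 70.2 CPM in input, 1.63-fold higher, and *GTF3C2* was 1.54-fold higher. *GTF3C6* had 8.5, 9.18 and 8.17 CPM in RIP and 33.9, 29.1 and 29.1 CPM in input, 3.55-fold lower, with a log2 fold change of -1.83 that was -0.37 after the length correction. *GTF3C5* fell 2.86-fold, *GTF3C3* 2.01-fold and *GTF3C1*, the largest TFIIIC subunit, 1.85-fold. *GTF3A*, the zinc finger protein TFIIIA, fell 1.67-fold and turned to 0.24 on the log2 scale after the length correction.

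**Figure D4:**
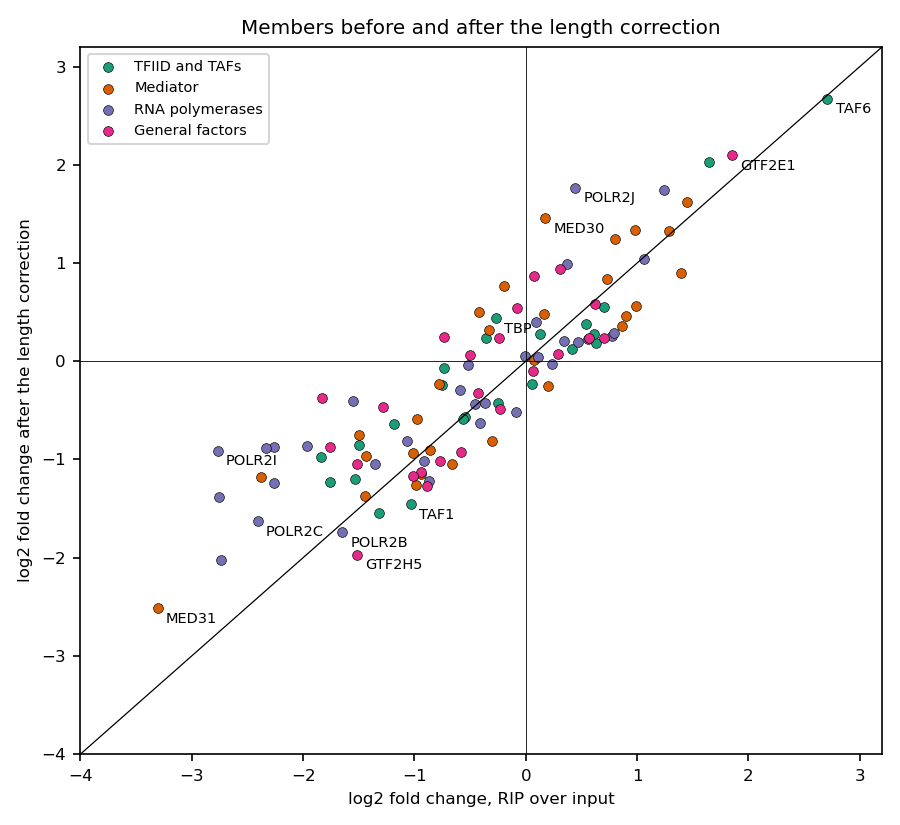
Log2 fold change of each of the 109 tested members after removal of the trend with gene length (y axis) against the value without that correction (x axis), coloured by complex, with the line of equal values. Among short genes *POLR2I* moves from -2.77 to -0.91 and *POLR2J* from 0.44 to 1.77, *GTF2H5* moves from -1.52 to -1.97, and *TAF6* hardly moves.

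Ratios of paralogs within a library do not depend on how libraries are scaled, but the trend with length is not removed from them. Of 5 pairs considered, 4 had both members tested. The log2 ratio of *TAF9B* to *TAF9* was 2.68 ± 0.0518 in RIP and 0.49 ± 0.130 in input (SD, n = 3 each), a difference of 2.19. *TAF9* itself had 16.1, 18.3 and 16.8 CPM in RIP and 26.8, 22.9 and 25.1 CPM in input, 1.46-fold lower, and shares its locus with *AK6* and *RAD17*, and *AK6* had a log2 fold change of -2.69. *MED13L* over *MED13* differed by 0.53, at -0.26 ± 0.0531 in RIP and -0.79 ± 0.0748 in input. *POLR3GL* over *POLR3G*, alternative subunits of polymerase III, differed by -1.53, at -2.16 ± 0.270 in RIP and -0.62 ± 0.0960 in input. *POLR3GL* had 2.35, 1.99 and 2.15 CPM in RIP and 6.94, 5.54 and 6.49 CPM in input, 2.93-fold lower. *POLR3G*, at 9.13, 10.9 and 8.84 CPM in RIP and 10.6, 9.17 and 9.41 CPM in input, did not pass. *POLR3GL* is 1178 nt long and *POLR3G* 3556 nt. After the length correction their log2 fold changes lay closer together, at -0.40 and 0.057. The two-sided exact permutation test gave p = 0.10 for each of these 3 differences, the smallest that 3 against 3 libraries allow (adjusted p = 0.133 over the 4 pairs). *TAF4B* alone was 1.45-fold higher, at 20.9, 20.3 and 19.6 CPM in RIP and 14.6, 13.8 and 13.4 CPM in input. *TAF4B* over *TAF4* differed by -0.16 with exact permutation p = 0.20. Most single genes were separated between RIP and input, at 40.9% above and 42.2% below of all tested genes, so separation of a pair's ratios is not particular to these paralogs.

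Ratios of 13 pairs of partner subunits that bind one another are given as a description without a test, since the pairs were chosen after their values were seen. The CPM ratio of *TAF6* to its histone-fold partner *TAF9* was 9.55-fold higher in RIP than in input. For *MED21* to *MED7*, which form the hinge of the middle module, it was 5.33-fold higher, and for *POLR2A* to *POLR2B* 4.61-fold. The ratio of *POLR1D* to *POLR1C* was 4.41-fold higher and that of *TAF8* to *TAF10* 3.86-fold. In contrast, *POLR3A* to *POLR3B* differed by 1.03-fold with overlapping libraries, and the subunits of TFIIA and TFIIF each differed by 1.2-fold from their ratio in input. The trend with length is not removed from these ratios. *POLR1D* is 10235 nt long and *POLR1C* 2839 nt. Their log2 fold changes were 0.29 and -1.05 after the length correction, in place of 0.79 and -1.35. For *TAF8* and *TAF10* they were 0.18 and -1.55, in place of 0.63 and -1.32.

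**Figure D5:**
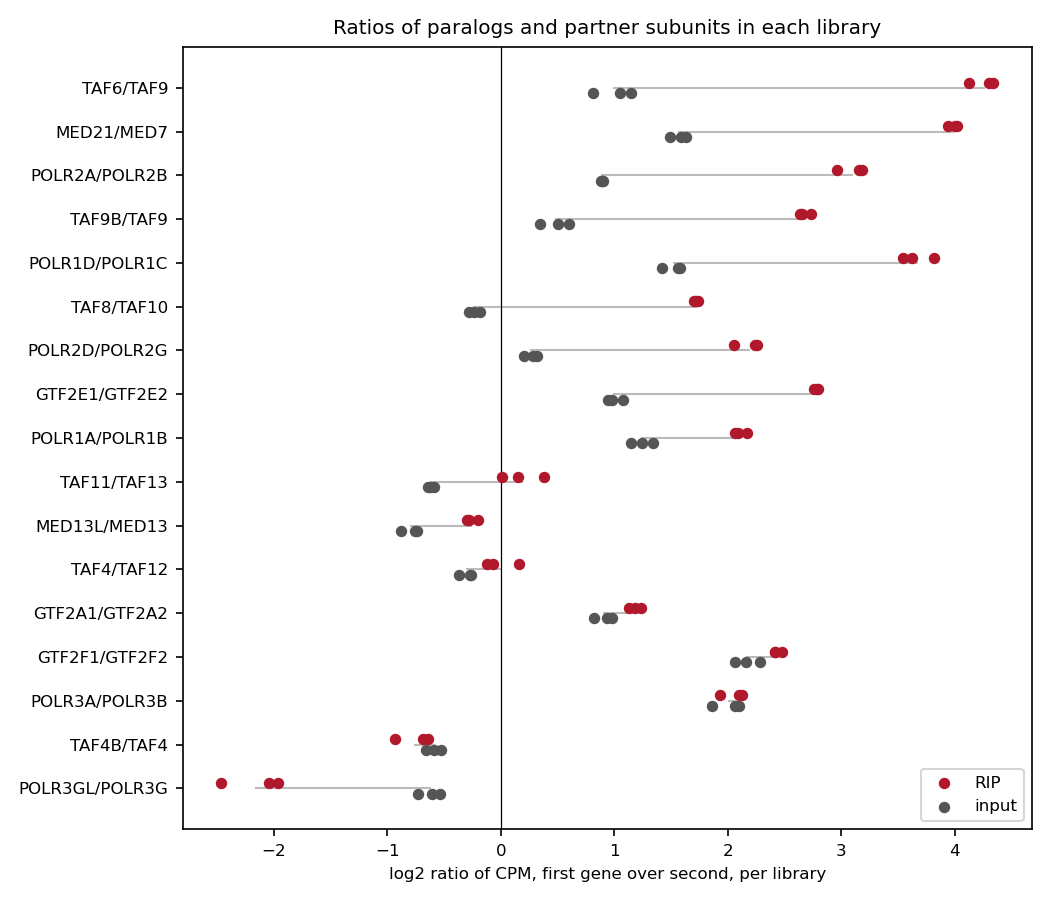
Log2 ratio of the CPM of the first to the second gene of 17 pairs of paralogs or partner subunits (x axis), with 3 RIP libraries in red above 3 input libraries in grey and a line joining the group means. *TAF6* to *TAF9* at the top differs by 3.26 between RIP and input, *POLR3A* to *POLR3B* overlaps, and *POLR3GL* to *POLR3G* at the bottom differs by -1.53.

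Deposited FPKM, a level per length, was compared among the subunits of one complex, as a description without a test. Over the 14 TFIID subunits the highest FPKM exceeded the lowest by 28.2 to 33.2-fold in the RIP libraries and by 4.84 to 5.10-fold in the inputs. The wide range in RIP was *TAF6* alone: over the other 13 subunits it was 4.36 to 5.10-fold in RIP and 4.84 to 5.10-fold in input. *TAF6* was the highest in each RIP library, at a mean of 75.7 ± 1.74 FPKM in RIP and 13.7 ± 0.766 FPKM in input, and *TAF7* in each input, at 3.87 ± 0.276 FPKM in RIP and 15.5 ± 0.664 FPKM in input. Over the 12 subunits of polymerase II the range was 28.0 to 34.8-fold in RIP and 14.0 to 15.5-fold in input, and without *POLR2J* 24.7 to 28.8-fold in RIP and 14.0 to 15.5-fold in input. *POLR2L* led the inputs with 19.0 ± 1.92 FPKM in RIP and 151 ± 11 FPKM in input, and *POLR2J* led the RIP libraries with 53.0 ± 3.07 FPKM in RIP and 46.0 ± 2.48 FPKM in input. For the 29 tested Mediator genes the range was 177 to 250-fold in RIP and 53.1 to 73.9-fold in input, with *MED15* highest in every library. Lowest was *MED17* in every input and in RIP libraries 1 and 2, and *MED31* in RIP library 3. *MED17* had a mean of only 0.241 FPKM in RIP and 0.547 FPKM in input, so the Mediator range rests on scarce genes at its low end. Without *MED15* the range was 122 to 145-fold in RIP and 37.5 to 58.8-fold in input.

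The cofactors that work with these complexes were also more often depleted than enriched. Of 72 genes listed for them 69 were tested, 22 enriched and 42 depleted, with a median log2 fold change of -0.44, beside 40.7% enriched and 42.0% depleted among all tested genes. After the length correction 24 were enriched and 42 depleted, beside 40.2% and 40.0% of all tested genes. Initiation factors of polymerases I and III were depleted in 8 of 10 cases, among them *SNAPC1*, of the complex that reads small nuclear RNA promoters, which was 3.04-fold lower; *SNAPC3* of the same complex rose 1.80-fold. SAGA had 5 enriched and 8 depleted subunits of 14, from *SUPT20H*, 2.82-fold higher, to *TADA3*, 2.48-fold lower. In pause release and elongation 9 were enriched and 13 depleted of 23 tested. *TCEA1*, which rescues stalled polymerase II, was 1.97-fold higher at 447 ± 16.7 CPM in RIP and 227 ± 2.91 CPM in input, and *LEO1* of the PAF complex 3.56-fold lower. Polymerase II assembly factors and phosphatases of its tail were 4 enriched and 5 depleted of 10, from *RPAP2*, 2.30-fold higher, to the GTPase *GPN3*, 5.42-fold lower. Of the relatives and regulators of TBP 1 was enriched and 2 depleted of 4 tested. *TBPL1* was 2.45-fold lower, and *DR1*, a repressor that binds TBP, 1.29-fold higher before and -0.13 on the log2 scale after the length correction. The other depleted gene, *DRAP1*, turned from a log2 fold change of -0.35 to 0.93 and was then called enriched. *PAF1*, of the elongation list, likewise turned from -0.42 to 0.13. *SUPT4H1*, *NELFCD* and *TBPL2* did not pass the filter. Most cells use *SUPT4H1* and *NELFCD*, and how the authors' counting treated them is not known, so their listed values are not read as levels.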

How the data were processed

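Per the file headers, the authors deposited whole-number read counts and FPKM for each gene symbol and library. Trimming, alignment and counting tools listed in the submitters' processing notes are fastp 0.23.2, STAR 2.7.10a and featureCounts, beside DESeq2, and the build is hg38. For the annotation, the strand setting and reads with several alignments, the answer is not given in the sources used here. The values of 8 members with near-identical copies are therefore uncertain. The RefSeq spans (GRCh38.p14) of 32 members overlap another protein-coding gene, whose reads may not be fully separable. All 110 symbols matched RefSeq.

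Genes passing filterByExpr (12856) were scaled with TMM and tested with edgeR 4.0.16 (quasi-likelihood, robust, R 4.3.3), with RIP against input as the only term and Benjamini-Hochberg adjustment over all genes. SEs come from the spread of log2 CPM. Gene lengths came from counts, FPKM and column totals. The length correction used a robust loess curve (span 0.3) per library as offsets. The procedure was checked on simulated data. Exact permutation tests used SciPy 1.17.1. Alternatives were other scalings, filters and tools (DESeq2 1.42.0, limma 3.58.1), a replicate block and leaving out each library.

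Members and lists were chosen with earlier results of these data known. By the rule for named genes, the text names *TBP*, *TAF1*, *POLR2A*, *MED1*, *MED12*, *MED13*, *MED14*, the paralog pairs and, in each subgroup and cofactor list, the highest and lowest called gene with at least 5 CPM on average and no overlap between groups. Other genes named, among them *MED31*, *POLR2B* and *POLR2H*, were chosen after their values were seen. Intervals of counting error are not given, since with 3 libraries a group the spread between libraries includes it.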

Additional observations from a re-analysis of the deposited data

How the results depend on the processing

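With 3 libraries a group, DESeq2, limma-voom, no filter on low counts and a block for the replicate number each gave the same 33 enriched and 63 depleted members in number as the edgeR test. The titles give RIP and input libraries the same replicate numbers, so same-numbered libraries may be pairs. Deviations of same-numbered libraries had correlations of 0.036, -0.046 and 0.035. These show little shared variation and cannot tell whether such libraries came from the same cells. The replicate block left 5210 genes enriched and 5390 depleted in all, against 5232 and 5403 without it. Leaving out 1 library at a time gave 32 to 34 enriched and 63 depleted members, with 7 and 14 for TFIID and the TAFs, 10 to 12 and 15 for Mediator, 9 to 10 and 19 for the polymerases and 6 and 15 for the general factors. Over all genes it gave 5103 to 5170 enriched and 5271 to 5348 depleted. The call of *MED25* appeared without RIP replicate 2, that of *POLR2J2* without RIP replicate 3, and those of *POLR2M* and *MED30* without input replicate 1. The paralog differences ranged from 2.12 to 2.25 for *TAF9B*, 0.49 to 0.56 for *MED13L*, -1.63 to -1.38 for *POLR3GL* and -0.22 to -0.073 for *TAF4B*, the last being closest to 0 without RIP replicate 3. A test against a 1.5-fold change, which asks for a larger effect by construction, called 18 members enriched and 43 depleted. Over all 12856 tested genes it called 2973 enriched and 3358 depleted. By complex it called 3 enriched and 9 depleted for TFIID and the TAFs, and 9 enriched and 11 depleted for Mediator. For the polymerases it called 4 enriched and 14 depleted, and for the general factors 2 enriched and 9 depleted. Leaving out members whose spans overlap another gene, an alternative chosen after seeing the data, removes genes by construction and left 8 depleted for TFIID and the TAFs and 12 for the polymerases; over all complexes 27 were enriched and 44 depleted of 78. Without the 8 near-identical copies, likewise chosen after seeing the data, 31 were enriched and 60 depleted of 101. On the log2 scale the direction turned under the length correction for *TAF2* (-0.23), *TBP* (0.44), *TAF15* (0.23), *MED11* (0.76), *MED8* (0.32), *MED19* (0.50), *MED12* (-0.25), *POLR3D* (-0.025), *GTF2F1* (0.24), *GTF2F2* (0.062), *GTF2H2* (0.54), *GTF3A* (0.24) and, of the cofactors named by the rule, *DR1* (-0.13). *GTF2H2C* (-0.10) and *POLR3G* (0.057) also turned, but were not called with or without that correction. The direction turned under read-total scaling, log2(FPKM + 1) and log2(FPKM + 0.1), in this order, for *TAF2* (-0.18, -0.17 and -0.18), *MED20* (-0.079, -0.068 and -0.076), *MED25* (-0.16, -0.15 and -0.16), *MED12* (-0.042, -0.034 and -0.039), *POLR3D* (-0.0045, -0.0030 and -0.0038) and *GTF2E2* (-0.17, -0.15 and -0.17). Under read-total scaling *TAF5* (-0.11), *MED30* (-0.064), *POLR1G* (-0.15), *POLR2M* (-0.13) and *GTF2H2C* (-0.17) also turned. They were not called with TMM or with read totals. The cause was not tested. Members with few reads, such as *MED31* and *MED12L*, are measured least precisely.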
